A study of Mus musculus with 12 samples.

Results

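Naive CD8 T cells of Ikaros-Zn4-/- mice (Zn4 cells) were compared after 24 h of stimulation and at rest (0 h). The comparison rests on 4 of the series' 12 libraries, 2 from stimulated and 2 from resting Zn4 cells, chosen by genotype and time alone, and covers all 12885 genes of the deposited expression table. RNA came from spleens of female C57Bl/6 mice aged 6 weeks; cells were enriched by negative selection, sorted as naive CD8+ CD44lo/- cells, and either lysed directly or kept for 24 h on plates coated with anti-CD3 and anti-CD28 antibodies. Wild-type (WT) cells of the same sort, at 24 h and 0 h with 2 libraries each, serve below to test where the Zn4 response differed. The remaining 4 libraries, of both genotypes at 12 h, entered only the filter on low values and the estimate of spread.

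Ikaros, encoded by Ikzf1, is a zinc-finger protein that binds DNA in lymphocytes and recruits chromatin complexes such as NuRD, and it is known to restrain Il2 transcription in mouse T cells. The Zn4 allele is named after the fourth of its DNA-binding zinc fingers. Stimulation through CD3 and CD28 mimics antigen recognition with costimulation: naive CD8 T cells leave quiescence, grow, divide, and start to make granzymes, cytokines and chemokines. Sphingosine signalling through S1pr1 and homing through Ccr7 keep naive cells moving through lymphoid organs.

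The 4 marker genes Gzmb, Il3, Ifng and S1pr1 separated the groups by wide margins. Gzmb, which encodes granzyme B, a protease of cytotoxic granules, had 1561 and 836 RPKM in the 2 stimulated libraries (replicate 1, then replicate 2, here and throughout), against 1.72 and 0.993 RPKM in the resting libraries. RPKM scales reads to the length of the gene and to the total reads of the library. Il3, a cytokine gene, had 283 and 240 RPKM at 24 h, against 0.0607 and 0 RPKM at rest. Both groups were far apart for either gene, and at rest Il3 rested on 1 read in replicate 1 and 0 reads in replicate 2. Ifng, the gene of interferon gamma, had 224 and 278 RPKM at 24 h, against 0.443 and 0.399 RPKM at rest. S1pr1, the receptor by which naive T cells leave lymphoid organs, had 3.42 and 2.68 RPKM at 24 h, against 210 and 164 RPKM at rest. On the log2(RPKM + 1) scale, which understates the change of any gene near or under 1 RPKM, Gzmb rose by 8.94 ± 0.36 (SE; adjusted p = 4.5e-08), Il3 by 7.99 ± 0.20 (1.2e-08) and Ifng by 7.46 ± 0.20 (1.3e-08). S1pr1 fell by 5.53 ± 0.17 on the same scale (adjusted p = 2.0e-08). These are limma tests with Benjamini-Hochberg adjustment over all 12726 tested genes, and a gene is called at an adjusted p under 0.05.

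The promoters of these markers are shown because the genes are among the 12 largest rises. RefSeq sequences of the GRCm38.p6 build run from 250 bases before to 50 bases after the gene's start, 5′ to 3′ on the gene's strand, and 3 of the 4 markers have an entry. Capitals mark a match, on either strand, to the AP-1 motif TGANTCA, the NFAT core GGAAA or the Ikaros core TGGGAA, and matches of these motifs may overlap elsewhere but do not in the windows shown. Gzmb lies at chr14:56262285-56262584 (minus strand), Il3 at chr11:54267230-54267529 (minus strand) and Ifng at chr10:118440796-118441095 (plus strand).
Gzmb: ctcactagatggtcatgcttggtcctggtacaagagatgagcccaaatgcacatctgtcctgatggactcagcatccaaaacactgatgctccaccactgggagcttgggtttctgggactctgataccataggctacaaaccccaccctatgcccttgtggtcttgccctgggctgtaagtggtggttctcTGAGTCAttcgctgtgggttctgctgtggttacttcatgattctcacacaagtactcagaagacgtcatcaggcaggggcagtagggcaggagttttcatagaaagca
Il3: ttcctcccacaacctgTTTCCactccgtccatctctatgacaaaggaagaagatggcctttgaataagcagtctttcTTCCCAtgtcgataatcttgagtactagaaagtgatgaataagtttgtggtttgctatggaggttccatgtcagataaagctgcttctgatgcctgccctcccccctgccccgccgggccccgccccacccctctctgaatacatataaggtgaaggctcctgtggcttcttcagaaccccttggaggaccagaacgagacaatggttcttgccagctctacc
Ifng: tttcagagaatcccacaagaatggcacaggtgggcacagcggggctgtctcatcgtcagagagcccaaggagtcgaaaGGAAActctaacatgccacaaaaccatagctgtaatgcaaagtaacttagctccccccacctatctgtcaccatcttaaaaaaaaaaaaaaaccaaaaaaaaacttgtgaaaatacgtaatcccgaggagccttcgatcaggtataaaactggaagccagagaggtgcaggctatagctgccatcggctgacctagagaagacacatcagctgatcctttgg
The Gzmb window held 1 AP-1 match, the Il3 window 1 NFAT core and 1 Ikaros core, and the Ifng window 1 NFAT core. The background was 27025 mouse promoters of this length, with 1 per gene symbol and 1 chromosome left out. Of that background, 7.93% hold the AP-1 motif, 61.3% the NFAT core and 25.5% the Ikaros core. Among the 12 genes with the largest rises, 10 have a promoter in the table, and 2 of these held the AP-1 motif, 8 the NFAT core and 2 the Ikaros core. A match is a run of letters and does not show binding.

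**Figure D1:**
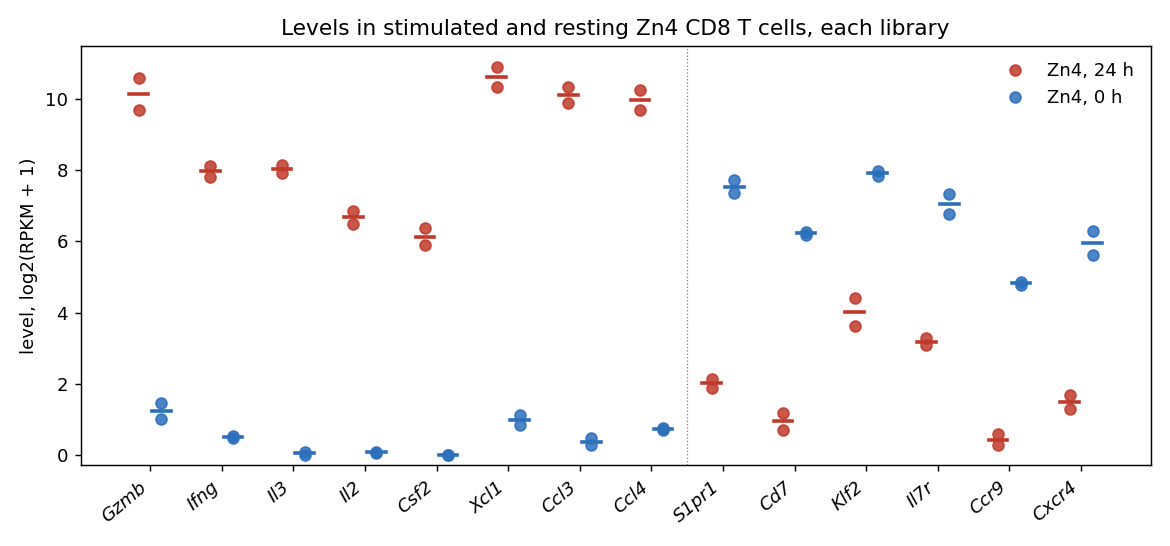
Level of 14 genes as log2(RPKM + 1) in each library of Zn4 cells at 24 h and at 0 h. Each point is 1 library and each bar the mean of 2; the groups overlap for none of these genes, and Gzmb sits at 1561 and 836 RPKM at 24 h against 1.72 and 0.993 RPKM at rest.

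Libraries held 24986738 to 26978970 reads, and listed genes took 85.6% and 86.1% of the reads at 24 h, against 74.4% and 76.3% at rest. A count of 3 reads over 2 kb equals 0.0556 to 0.06 RPKM, and the 2 libraries of a group correlated over genes at r = 0.986 at 24 h and 0.983 at rest. The CD8 label fits the markers: Cd8a, the CD8 alpha chain, had 181 and 212 RPKM at 24 h against 193 and 172 RPKM at rest, while Cd4 stayed at or under 1.88 RPKM. Ikzf1 had 136 and 139 RPKM at 24 h, against 129 and 137 RPKM at rest, but a gene-level value does not tell the mutant transcript from the intact one. The summed level of the B cell markers was 125 and 189 RPKM at 24 h, against 118 and 79.9 RPKM at rest, over the 5 of 15 markers that have values; nearly all of it was Cd74 and Ighm (97.2 and 161 RPKM, against 70.9 and 55.1 RPKM), whose rise loses its call without stimulated replicate 2 (adjusted p = 0.12) or resting replicate 2 (0.0814). Myeloid markers (3 of 17 with values) summed to 34.5 and 33.7 RPKM at 24 h against 14.3 and 19.4 RPKM at rest, mostly Cst3. Markers of CD4 and other T lineages (5 of 10) summed to 11.1 and 19.7 RPKM at 24 h against 4.39 and 4.75 RPKM at rest, mostly Cxcr5 at rest. NK and gamma-delta markers (5 of 13) summed to 5.73 and 6.05 RPKM at 24 h against 38.1 and 40.7 RPKM at rest, mostly Cd163l1 at rest, and the erythroid and platelet marker Itga2b stayed at or under 1.67 RPKM. The other markers on these lists, among them Ms4a1, Lyz2, Foxp3 and Hba-a1, have no row and were not analysed here. The part of any of these lists in the results below was not tested. In bulk RNA, more cells of a type and more RNA per cell cannot be told apart.

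Most genes changed after 24 h of stimulation. Of the 12726 tested genes (1 RPKM or more in 2 or more libraries), 9509 were called (74.7%), of which 6194 were higher (48.7% of the tested genes) and 3315 lower (26.0%). The median gene stood 0.31 higher on the log2 scale. Scaling the libraries by median ratios brings that median to -0.00 and the calls to 4767 higher and 4682 lower, so the share of higher calls among all calls is 65.1% as deposited and 50.4% after median-ratio scaling. Called changes of at least 2-fold on the log2(RPKM + 1) scale were seen in 3365 genes that rose and 1499 that fell. Changes of at least 32-fold on that scale were seen in 30 that rose and 3 that fell. The scale understates changes of genes near or under 1 RPKM, so these are not counts of fold changes in RPKM itself. The groups also differed in which genes were on: 104 genes had under 1 RPKM in both resting libraries and at least 10 RPKM in both stimulated libraries, and 23 genes had the reverse. The genes switched on included Bcat1, an enzyme of branched-chain amino acid breakdown (33.6 and 36.7 RPKM at 24 h, against 0.0696 and 0.119 RPKM at rest), and Wnt10b, a secreted Wnt ligand (45.0 and 36.3 RPKM, against 0.278 and 0.302 RPKM). Those switched off included Fbxo32, a ubiquitin ligase subunit (0.670 and 0.675 RPKM at 24 h, against 21.5 and 24.9 RPKM at rest), and Rasgrp2, an exchange factor for Rap1 (0.262 and 0.488 RPKM, against 16.8 and 17.5 RPKM).

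**Figure D2:**
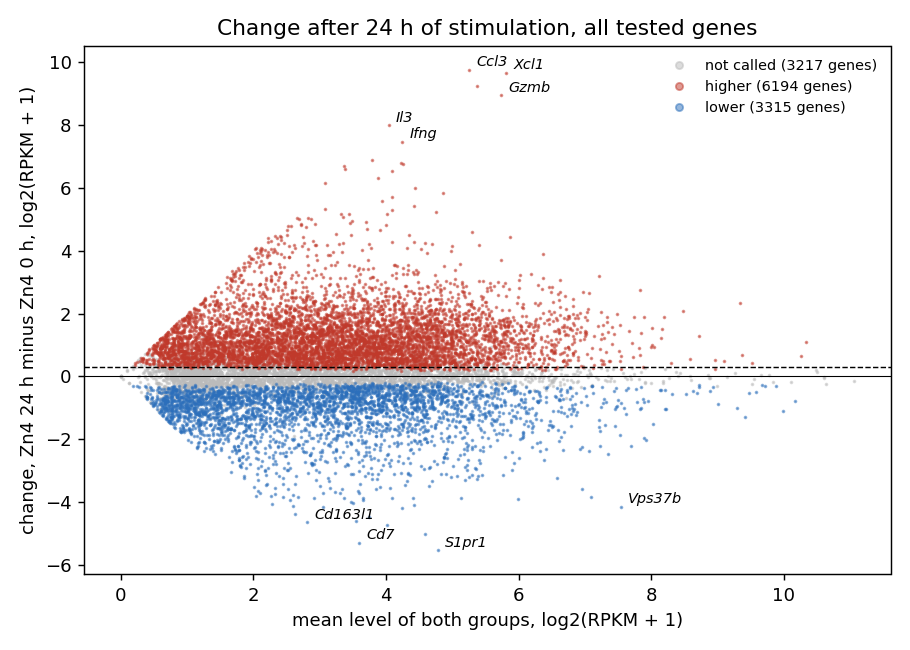
Log2 change of each of the 12726 tested genes in Zn4 cells, 24 h over 0 h, on the log2(RPKM + 1) scale, against the mean level of both groups, log2(RPKM + 1). Coloured points are the 6194 genes called higher and the 3315 called lower; the dashed line marks the median change of 0.31, and the named genes lie far outside the bulk.

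The 3 largest rises on the log2(RPKM + 1) scale were those of chemokine genes. Ccl3, which attracts T cells and myeloid cells, had 949 and 1295 RPKM at 24 h, against 0.199 and 0.387 RPKM at rest, a rise of 9.75 ± 0.38 (SE; adjusted p = 4.0e-08). Xcl1, which attracts cross-presenting dendritic cells, had 1298 and 1918 RPKM at 24 h, against 1.17 and 0.780 RPKM at rest, and rose by 9.65 ± 0.18 (3.0e-09). Ccl4, a close relative of Ccl3, had 832 and 1220 RPKM at 24 h, against 0.636 and 0.674 RPKM at rest, and rose by 9.25 ± 0.24 (1.2e-08). The groups were far apart for these genes, and replicate 2 was the higher for each. Of the 8 chemokine genes tested out of 13 listed, 7 rose and none fell, with a median change of 5.37, against the 48.7% of all tested genes that rose and a median of 0.31. The exception, the interferon-induced Cxcl10, had 1.54 and 1.16 RPKM at 24 h, against 1.36 and 0.975 RPKM at rest. Ccl9 was counted with 7516 and 8549 reads at 24 h, against 0 and 2 reads at rest, a ratio of 8443 (95% counting interval 2337 to 69719). Chemokine genes took 0.230% and 0.322% of all reads at 24 h, against 0.000832% and 0.000652% at rest.

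Cytokine genes changed in both directions. Of 14 tested out of 28 listed, 10 rose (71.4%, against 48.7% of all tested genes), with a median change of 2.16. The 4 that fell (28.6%) were near the 26.0% of all tested genes. Il2, the growth factor of activated T cells, had 116 and 88.6 RPKM at 24 h, against 0.0334 and 0.0648 RPKM at rest. That is 3404 and 2533 reads against 1 and 2 reads, a ratio of 2080 (95% counting interval 711 to 10089). Csf2, the gene of GM-CSF and a neighbour of Il3 in the mouse genome, had 81.9 and 58.6 RPKM at 24 h and no read in either resting library, and so was at least 491-fold higher, with 3 reads per library taken as the floor. For Il3 the ratio of reads was 8755 (1571 to 345853). These intervals cover counting error only. Lta, which encodes lymphotoxin alpha, had 173 and 214 RPKM at 24 h, against 7.12 and 6.81 RPKM at rest, a rise of 4.60 ± 0.13. Its partner in the membrane-bound lymphotoxin, Ltb, had 25.3 and 50.8 RPKM at 24 h, against 170 and 197 RPKM at rest, a fall of 2.32 on the log2 scale. Tnf, the proinflammatory ligand of Tnfrsf1a, rose by 2.67 ± 0.35. Il16, a ligand of CD4, had 1.94 and 2.54 RPKM at 24 h, against 18.9 and 18.9 RPKM at rest, and Flt3l, a dendritic cell growth factor, had 3.02 and 3.88 RPKM, against 6.11 and 6.75 RPKM; both fell. Il4, Il5, Il10, Il13 and Il17a were among the 14 listed genes that did not enter the test.

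Of 17 granule genes tested out of 22 listed, 11 rose (64.7%, against 48.7% of all tested genes) and 5 fell (29.4%, against 26.0%), with a median of 1.33. Gzmc, a granzyme of strongly activated T cells, had 39.9 and 21.7 RPKM at 24 h, against 0.0409 and 0.159 RPKM at rest. Serpinb9, the inhibitor that shields cells from granzyme B, had 163 and 62.5 RPKM at 24 h, against 1.63 and 1.52 RPKM at rest, a rise of 5.31 ± 0.36 that is 4.63 without stimulated replicate 1 and 6.00 without replicate 2. Prf1, the pore-forming perforin, had 39.7 and 59.7 RPKM at 24 h, against 18.6 and 8.41 RPKM at rest, a rise of 1.87 ± 0.34, far smaller than that of Gzmb. The granzyme genes Gzmm and Gzma fell: Gzmm had 1.91 and 1.50 RPKM at 24 h, against 36.8 and 18.3 RPKM at rest, and Gzma 0 and 0.0456 RPKM, against 5.22 and 2.62 RPKM. Ctsw, a cathepsin of cytotoxic lymphocytes, had 30.8 and 42.2 RPKM at 24 h, against 164 and 156 RPKM at rest, and fell by 2.12 on the log2 scale. The granule genes together took 0.471% and 0.295% of all reads at 24 h, against 0.128% and 0.124% at rest.

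Cytokine receptor genes included steep changes both ways. Of 27 tested, 7 rose (25.9%, against 48.7% of all tested genes) and 14 fell (51.9%, against 26.0%), with a median of -0.63. Il2ra, the high-affinity IL-2 receptor chain, had 214 and 174 RPKM at 24 h, against 0.442 and 1.14 RPKM at rest, and rose by 6.79 ± 0.17. Its partners Il2rb (226 and 212 RPKM at 24 h, against 227 and 191 RPKM at rest) and Il2rg (129 and 135 RPKM, against 132 and 123 RPKM) overlapped between the groups and were not called. Il12rb1, a chain of the IL-12 receptor, had 37.6 and 66.0 RPKM at 24 h, against 1.95 and 0.722 RPKM at rest. The second chain, Il12rb2, had 43.6 and 14.3 RPKM at 24 h, against 1.37 and 1.41 RPKM at rest, a rise of 3.45 ± 0.39 that is 2.68 without stimulated replicate 1 and 4.22 without replicate 2. Il7r, the survival receptor of naive cells, had 8.79 and 7.45 RPKM at 24 h, against 108 and 161 RPKM at rest, and fell by 3.87 on the log2 scale. Both interferon gamma receptor chains fell too: Ifngr1 had 13.5 and 11.1 RPKM at 24 h, against 133 and 120 RPKM at rest, and Ifngr2 2.89 and 1.82 RPKM, against 50.5 and 34.8 RPKM. Il6ra, Il6st, Tgfbr2 and Il18r1, receptor chains for IL-6, TGF-beta and IL-18, fell by 2.74 to 3.46 on the log2 scale.

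Among 28 tested genes of the TNF superfamily and costimulation, 18 rose (64.3%) and 8 fell (28.6%), with a median of 1.87. Over all tested genes the shares were 48.7% and 26.0%. Tnfrsf9, which encodes the costimulatory receptor 4-1BB, had 249 and 188 RPKM at 24 h, against 2.40 and 3.31 RPKM at rest. Tnfrsf4, the gene of OX40, had 155 and 111 RPKM at 24 h, against 5.12 and 8.06 RPKM at rest, and its ligand Tnfsf4 had 42.5 and 24.6 RPKM, against 1.31 and 1.29 RPKM. Both the receptor and the ligand thus stood apart between the groups. Other receptors of the list fell: Cd28 had 42.1 and 51.4 RPKM at 24 h, against 141 and 103 RPKM at rest, Cd2 had 34.9 and 33.8 RPKM, against 183 and 180 RPKM, and Icos had 15.4 and 18.2 RPKM, against 40.3 and 45.2 RPKM. Of 15 tested inhibitory receptor and ligand genes, 8 rose (53.3%, near the share over all tested genes) and 7 fell (46.7%), with a median of 1.16. Cd200 had 128 and 133 RPKM at 24 h, against 0.598 and 0.714 RPKM at rest, a rise of 6.31 ± 0.11. Pdcd1, the gene of PD-1, had 90.1 and 194 RPKM at 24 h, against 1.50 and 2.88 RPKM at rest, and Lag3, a receptor for MHC class II, had 70.6 and 69.5 RPKM, against 1.32 and 1.42 RPKM. Ctla4, which competes with Cd28 for its ligands, went the other way, with 6.49 and 9.40 RPKM at 24 h, against 46.3 and 29.5 RPKM at rest, a fall of 2.11 on the log2 scale.

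Genes of the naive state were mostly lower. Of 30 tested, 22 fell and 3 rose (median -1.77). Klf2, which drives S1pr1 expression in T cells, had 20.4 and 11.2 RPKM at 24 h, against 253 and 229 RPKM at rest, and fell by 3.91 on the log2 scale. Pik3ip1, an inhibitor of PI3 kinase, had 1.01 and 1.67 RPKM at 24 h, against 73.2 and 40.8 RPKM at rest. Tcf7 and Lef1, transcription factors of naive and memory T cells, fell by 2.03 and 2.50: Tcf7 had 130 and 108 RPKM at 24 h, against 505 and 470 RPKM at rest. Cdkn1b, the cell-cycle brake p27, had 11.2 and 7.56 RPKM at 24 h, against 69.1 and 71.2 RPKM at rest. The 3 that rose were Rb1, Bach2 and Foxp1; Bach2, a repressor of effector genes, had 45.1 and 39.5 RPKM at 24 h, against 21.6 and 22.3 RPKM at rest, while Foxp1 rose by 0.36 as deposited and changed by -0.01 after median-ratio scaling. The list took 0.445% and 0.385% of reads at 24 h, against 1.21% and 1.18% at rest.

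Several homing receptors of naive cells fell. Of 32 tested, 10 rose (31.2%, against 48.7% of all tested genes) and 15 fell (46.9%, against 26.0%), with a median of -0.19. Cxcr4, the receptor for Cxcl12, had 2.20 and 1.42 RPKM at 24 h, against 77.6 and 48.1 RPKM at rest, and Ccr9, a gut-homing receptor, had 0.207 and 0.501 RPKM, against 27.9 and 26.6 RPKM. These receptors, like S1pr1, were lower in both stimulated libraries than in either resting library. Ccr7, the receptor for lymph node entry, had 1275 and 466 RPKM at 24 h, against 781 and 724 RPKM at rest; the stimulated libraries lay on either side of the resting ones, the change of 0.04 was not called, and without stimulated replicate 1 it is -0.69 (adjusted p = 0.00598). Itgae, the CD103 integrin chain, fell by 3.14 and Itgb7, its partner, by 2.59 on the log2 scale. Cd44, an adhesion receptor of activated cells, had 69.2 and 47.8 RPKM at 24 h, against 0.535 and 0.990 RPKM at rest, and rose by 5.07 ± 0.20. Rgs1 and Rgs16, which dampen chemokine receptor signals, rose by 5.16 and 5.22. Cd69, which holds S1pr1 inside the cell, had 87.3 and 79.8 RPKM at 24 h, against 242 and 276 RPKM at rest, and fell by 1.62 on the log2 scale.

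Of 34 tested genes of T cell receptor signalling, 18 fell (52.9%) and 7 rose (20.6%) as deposited (median -0.33). The shares over all tested genes were 26.0% and 48.7%. After median-ratio scaling 23 fell and 3 rose. The CD3 chain genes Cd3d (120 and 151 RPKM at 24 h, against 268 and 279 RPKM at rest) and Cd3g (88.0 and 128 RPKM, against 199 and 219 RPKM) fell, as did Cd8b1, the CD8 beta chain (178 and 196 RPKM, against 318 and 327 RPKM). Downstream, the kinase gene Prkcq had 9.26 and 12.9 RPKM at 24 h, against 42.1 and 40.2 RPKM at rest, and fell by 1.82 on the log2 scale. Rasgrp1, which activates Ras, fell by 1.71. The genes that rose included the phosphatase Ptpn6 (99.6 and 116 RPKM at 24 h, against 33.4 and 43.6 RPKM at rest) and the adaptor Lcp2 (95.5 and 115 RPKM, against 42.1 and 63.5 RPKM). The adaptor Lat had 383 and 383 RPKM at 24 h, against 383 and 378 RPKM at rest.

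Transcription factor genes of effector cells divided into 16 that rose and 9 that fell out of 32 tested (median 0.51), a balance that becomes 13 and 13 after median-ratio scaling. As shares of the list, the counts as deposited were near those over all tested genes (48.7% higher and 26.0% lower). Zbtb32, a repressor induced by activation, had 176 and 126 RPKM at 24 h, against 0.259 and 0.252 RPKM at rest, and rose by 6.90 ± 0.21. Irf8 rose by 4.89 (48.8 and 70.3 RPKM at 24 h, against 1.03 and 0.988 RPKM at rest), and Irf4, a factor needed for clonal expansion, by 1.73 (329 and 253 RPKM, against 110 and 67.4 RPKM). Tbx21, the gene of T-bet, had 21.0 and 28.2 RPKM at 24 h, against 7.58 and 2.83 RPKM at rest, a rise of 2.14 ± 0.37 that is 2.73 without resting replicate 1. Prdm1, the gene of Blimp-1, had 0.0925 and 0.0802 RPKM at 24 h, against 4.51 and 2.88 RPKM at rest, and its counterpart Bcl6 had 0.577 and 0.645 RPKM, against 11.4 and 9.74 RPKM; both fell. The groups do not overlap for any of these factors.

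The AP-1 and ATF genes were evenly divided, with 5 that rose and 5 that fell out of 14 (5 and 6 after median-ratio scaling). That is 35.7% each way, against 48.7% higher and 26.0% lower over all tested genes. Batf3 had 18.2 and 13.8 RPKM at 24 h and no reads at rest, at least 99.6-fold higher with 3 reads per library as the floor. Fosl1 had 17.1 and 17.3 RPKM at 24 h, against 0.626 and 1.32 RPKM at rest, whereas Fosl2 had 32.2 and 27.4 RPKM, against 75.1 and 132 RPKM. Batf, a partner of Irf4, had 20.7 and 22.4 RPKM at 24 h, against 45.9 and 40.2 RPKM at rest, and fell by 0.96. The immediate early genes Jun and Fos were already abundant at rest. Jun had 57.8 and 27.4 RPKM at 24 h, against 31.8 and 33.0 RPKM at rest. Fos had 23.1 and 9.29 RPKM, against 19.9 and 26.1 RPKM, and neither was called. Other genes of the list did change: Fosb fell by 2.31 and Atf3 rose by 3.94 on the log2 scale. Of 16 NF-kB pathway genes, 5 rose and 8 fell as deposited, and 3 rose and 10 fell under both other scalings: Nfkb1 had 301 and 229 RPKM at 24 h, against 54.7 and 72.5 RPKM at rest, and the inhibitor gene Tnfaip3 had 66.3 and 31.4 RPKM, against 147 and 154 RPKM. Of 13 genes listed as ERK feedback, 7 rose (53.8%) and 4 fell (30.8%), near the shares over all tested genes (48.7% and 26.0%). Spry1 had 73.1 and 75.9 RPKM at 24 h, against 1.76 and 2.28 RPKM at rest. Spred2 had 6.27 and 6.94 RPKM at 24 h, against 20.8 and 25.6 RPKM at rest. Of 19 STAT5 target genes, 15 rose (78.9%) and 2 fell (10.5%), with a median of 2.00. Bcl2l1, the gene of the survival factor Bcl-xL, had 105 and 85.7 RPKM at 24 h, against 3.19 and 3.34 RPKM at rest, and Cish, a feedback inhibitor of STAT5, had 49.9 and 40.2 RPKM, against 6.70 and 5.64 RPKM. Socs3 was one of the falls, with 21.4 and 11.2 RPKM at 24 h, against 62.9 and 59.6 RPKM at rest.

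Division genes rose nearly without exception, against 48.7% of all tested genes. All 44 G1/S and DNA replication genes were called higher (median 2.90; 43 after median-ratio scaling), and 38 of 39 G2/M and mitosis genes were (median 2.85). Rrm2, a subunit of ribonucleotide reductase, had 87.2 and 125 RPKM at 24 h, against 1.10 and 1.34 RPKM at rest, and rose by 5.57 ± 0.30. Mki67, which encodes the proliferation antigen Ki-67, had 51.4 and 66.1 RPKM at 24 h, against 0.675 and 0.651 RPKM at rest, and Cdk1, the mitotic kinase, had 27.7 and 42.0 RPKM, against 0.122 and 0.312 RPKM. Replicate 2 was the higher of the stimulated libraries for each of these genes. Ccnd2, a D-type cyclin, had 266 and 209 RPKM at 24 h, against 22.1 and 45.4 RPKM at rest. The mitotic cyclin Ccnb1 rose by 1.98, to 2.38 and 3.71 RPKM at 24 h, against 0.0181 and 0.00879 RPKM at rest. The exception among mitotic genes was Cenpa, a centromeric histone, with 9.18 and 15.8 RPKM at 24 h, against 21.9 and 16.5 RPKM at rest, whose fall of 0.62 loses its call without stimulated replicate 1 (adjusted p = 0.33) or resting replicate 1 (0.215). G1/S genes took 0.908% and 1.10% of reads at 24 h, against 0.122% and 0.133% at rest. Replication-dependent histone genes, whose near-identical copies share reads, were called higher in 21 of 26.

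The cell-cycle inhibitor and p53 target genes included 11 that rose and 6 that fell out of 20. As shares of the list, both counts were near the 48.7% and 26.0% of all tested genes. Cdkn1a, the gene of p21, had 204 and 139 RPKM at 24 h, against 1.12 and 2.33 RPKM at rest, a rise of 6.00 ± 0.34, opposite to Cdkn1b. Phlda3 and Perp, both p53 targets, rose by 5.04 and 4.86, whereas Sesn1 and Trp53inp1 fell by 2.85 and 2.31 on the log2 scale. Perp had 59.3 and 24.2 RPKM at 24 h, against 0.362 and 0.331 RPKM at rest, and its rise is 4.22 without stimulated replicate 1 and 5.49 without replicate 2. Among 21 apoptosis regulators, 12 rose (57.1%) and 5 fell (23.8%), shares near those over all tested genes (48.7% and 26.0%). Bax, a killer member of the Bcl-2 family, had 179 and 193 RPKM at 24 h, against 41.7 and 47.7 RPKM at rest. Bmf, a BH3-only member of that family, had 0.662 and 0.419 RPKM at 24 h, against 6.96 and 6.56 RPKM at rest. Bcl2 itself had 8.41 and 7.69 RPKM at 24 h, against 12.6 and 15.3 RPKM at rest, and fell by 0.72.

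Genes that build ribosomes and mitochondria rose together. For comparison, 48.7% of all tested genes rose and 26.0% fell. All 36 ribosome biogenesis genes rose (median 1.61), among them Nop2, a nucleolar methyltransferase, with 147 and 154 RPKM at 24 h, against 19.3 and 22.5 RPKM at rest. Of 74 mitochondrial ribosome genes, 71 rose and none fell (median 1.51), and of 77 respiratory chain and ATP synthase genes, 66 rose and 4 fell (median 1.25). Atp5b, the catalytic subunit of ATP synthase, had 406 and 425 RPKM at 24 h, against 109 and 112 RPKM at rest. Transcripts of the mitochondrial genome were divided: of 23, 7 rose and 2 fell as deposited, but 4 rose and 7 fell after median-ratio scaling and 6 and 4 after quantile normalization. Cytosolic ribosomal protein genes, where copies may share reads, gave 32 that rose and 11 that fell of 83 as deposited (median 0.09), but 14 and 41 after median-ratio scaling and 17 and 35 after quantile normalization. Rpl8 had 1959 and 2088 RPKM at 24 h, against 2294 and 2190 RPKM at rest, among the highest levels in either group. Of 38 proteasome genes, 36 rose, and Psmb10, a subunit of the immunoproteasome, was the fall, with 28.4 and 35.3 RPKM at 24 h, against 47.2 and 46.3 RPKM at rest, a fall that loses its call without stimulated replicate 1 (adjusted p = 0.16), resting replicate 1 (0.0824) or resting replicate 2 (0.0694).

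Most of the listed metabolic genes rose as well, against 48.7% of all tested genes that rose and 26.0% that fell. Rises were called for 29 of 34 genes of amino acid and one-carbon metabolism, and falls for 2 (median 1.79): Psat1, an enzyme of serine synthesis, had 60.5 and 63.6 RPKM at 24 h, against 4.68 and 4.85 RPKM at rest, and Mthfd2, a mitochondrial folate enzyme, had 88.6 and 80.6 RPKM, against 8.96 and 9.87 RPKM. Of 20 aminoacyl-tRNA synthetases, 19 rose, with Qars as the exception (27.8 and 31.2 RPKM at 24 h, against 26.4 and 25.6 RPKM at rest). Glycolysis and glucose uptake gave 15 that rose and 1 that fell of 21. Tpi1 and Ldha, glycolytic enzymes, had 83.7 and 76.5 RPKM and 300 and 335 RPKM at 24 h, against 3.13 and 4.66 RPKM and 39.9 and 57.6 RPKM at rest. The glucose transporter gene Slc2a1 had 39.0 and 37.9 RPKM at 24 h, against 36.0 and 27.6 RPKM at rest, and was not called. Pdk1, which holds pyruvate back from mitochondria, fell by 1.49 on the log2 scale. Of 28 sterol and fatty acid genes, 22 rose and 2 fell: Sqle, a step of cholesterol synthesis, had 15.5 and 15.9 RPKM at 24 h, against 2.39 and 2.23 RPKM at rest, while the falls were the cholesterol exporters Abcg1 (0.730 and 1.20 RPKM, against 35.1 and 32.5 RPKM) and Abca1. Of 28 heat shock and chaperonin genes, 21 rose and 4 fell. Hspd1, the mitochondrial chaperonin, had 154 and 183 RPKM at 24 h, against 20.4 and 26.0 RPKM at rest, whereas Dnaja1, a cochaperone, had 4.24 and 4.19 RPKM, against 15.5 and 14.6 RPKM. In each list of this paragraph the higher calls outnumbered the lower ones under both other scalings too.

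**Figure D3:**
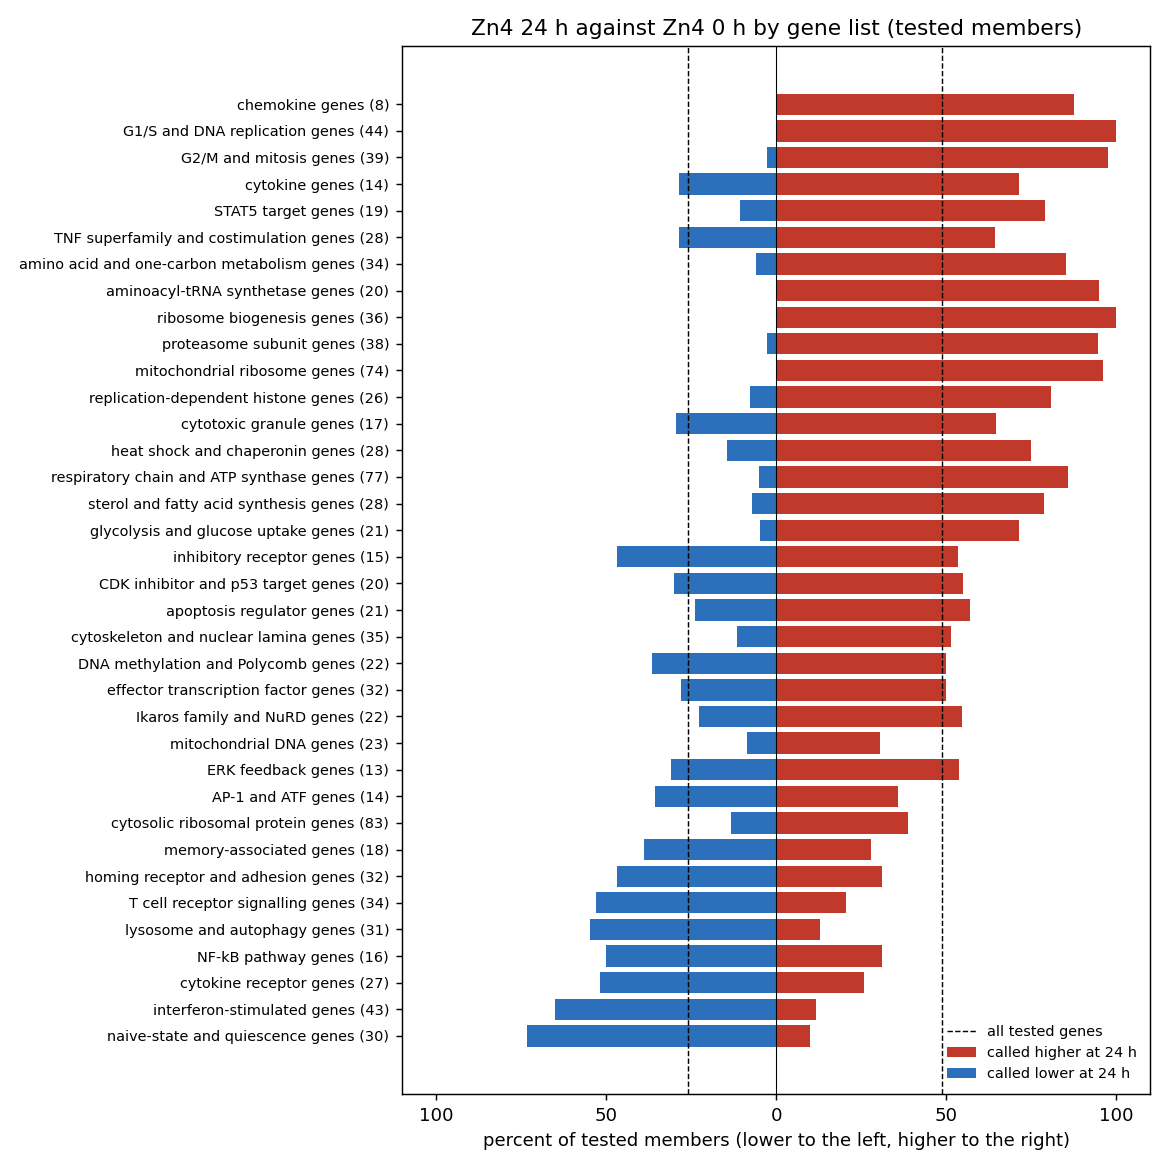
Percent of the tested members of each gene list drawn that were called higher or lower in Zn4 cells, 24 h over 0 h. Lists run down the page, and the marker lists of other cell types, which had few tested members, are not drawn. Dashed lines mark the same percentages over all 12726 tested genes, 48.7% higher and 26.0% lower; division and ribosome biogenesis lists reach or approach 100% higher, while naive-state, interferon-stimulated and lysosome lists lie on the lower side.

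Interferon-stimulated genes mostly fell. Of 43 tested, 28 fell (65.1%, against 26.0% of all tested genes) and 5 rose (11.6%, against 48.7%), with a median of -1.02. Irf7, the factor that amplifies type I interferon responses, had 0.466 and 0.782 RPKM at 24 h, against 24.3 and 18.6 RPKM at rest, and Oas2, an RNA sensor, had 0.158 and 0.180 RPKM, against 12.9 and 7.58 RPKM. The viral sensor Ifih1 (8.19 and 15.5 RPKM at 24 h, against 5.80 and 4.06 RPKM at rest) and the tether Bst2 (121 and 112 RPKM, against 70.7 and 50.7 RPKM) were among those that rose. Lysosome and autophagy genes also fell more often than they rose, 17 (54.8%) against 4 (12.9%) of 31. Map1lc3b, which coats autophagosomes, had 4.24 and 3.82 RPKM at 24 h, against 26.0 and 28.3 RPKM at rest. The initiating kinase gene Ulk1 had 9.85 and 8.53 RPKM, against 44.7 and 53.8 RPKM. Ctsz, a lysosomal carboxypeptidase, was the largest rise of that list, with 80.8 and 75.5 RPKM at 24 h, against 11.3 and 11.2 RPKM at rest.

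Of 35 cytoskeleton and lamina genes, 18 rose (51.4%) and 4 fell (11.4%) as deposited (median 0.68), against 48.7% and 26.0% of all tested genes. On this list 17 rose and 11 fell after median-ratio scaling, and 17 and 9 after quantile normalization. Tubb6, a beta-tubulin, had 116 and 128 RPKM at 24 h, against 1.17 and 1.58 RPKM at rest, and Actb had 1351 and 1538 RPKM, against 234 and 349 RPKM. The Ikaros family and NuRD list gave 12 that rose (54.5%) and 5 that fell (22.7%) of 22 as deposited. These shares were near the 48.7% and 26.0% of all tested genes. After median-ratio scaling the list gave 8 and 8. The 2 Ikaros relatives with the largest falls were Ikzf3 (16.1 and 19.9 RPKM at 24 h, against 44.7 and 48.8 RPKM at rest) and Ikzf2 (4.85 and 2.39 RPKM, against 7.49 and 10.5 RPKM). Ikzf1 was not called as deposited (change 0.05, adjusted p = 0.682) and stood at -0.34 after median-ratio scaling (adjusted p = 0.0153). Within NuRD, the histone-binding Rbbp7 had 76.2 and 95.1 RPKM at 24 h, against 25.5 and 29.6 RPKM at rest, and the remodeller Chd3 had 19.2 and 23.6 RPKM, against 81.0 and 85.5 RPKM. Of 22 DNA methylation and Polycomb genes, 11 rose and 8 fell: Uhrf1, which brings Dnmt1 to replicated DNA, had 80.4 and 115 RPKM at 24 h, against 1.46 and 1.89 RPKM at rest, and Ezh2, the Polycomb methyltransferase, had 47.3 and 49.6 RPKM, against 1.39 and 2.92 RPKM. The Polycomb reader Cbx7 had 11.4 and 13.1 RPKM at 24 h, against 38.8 and 34.2 RPKM at rest. Memory-associated genes divided into 5 that rose (27.8%) and 7 that fell (38.9%) of 18, with 4 and 8 after median-ratio scaling.

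The 2 stimulated libraries did not match for every gene. Among genes with at least 10 RPKM in either library, 65 were at least 2-fold higher (on the log2(RPKM + 1) scale) in stimulated replicate 1 and 12 in replicate 2; at rest the numbers were 17 and 28. Ramp3, a receptor-associated membrane protein, had 81.0 RPKM in stimulated replicate 1 and 13.2 in replicate 2. Plaur, the urokinase receptor, had 96.8 and 31.1 RPKM, and the annexin Anxa2 had 96.1 and 29.9 RPKM; the rise of Anxa2 over rest, 2.63, is 1.80 without replicate 1 and 3.45 without replicate 2. Lmna, the gene of lamin A, had 60.0 and 17.2 RPKM at 24 h, against 10.3 and 17.8 RPKM at rest, and its rise of 1.19 rests on stimulated replicate 1: without that library it is 0.32 (adjusted p = 0.415). It is 2.07 without stimulated replicate 2, and 0.82 (adjusted p = 0.231) without resting replicate 1. On the other side, Pdcd1 and Egr3 were higher in replicate 2, Egr3 with 28.6 and 60.0 RPKM.

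**Figure D4:**
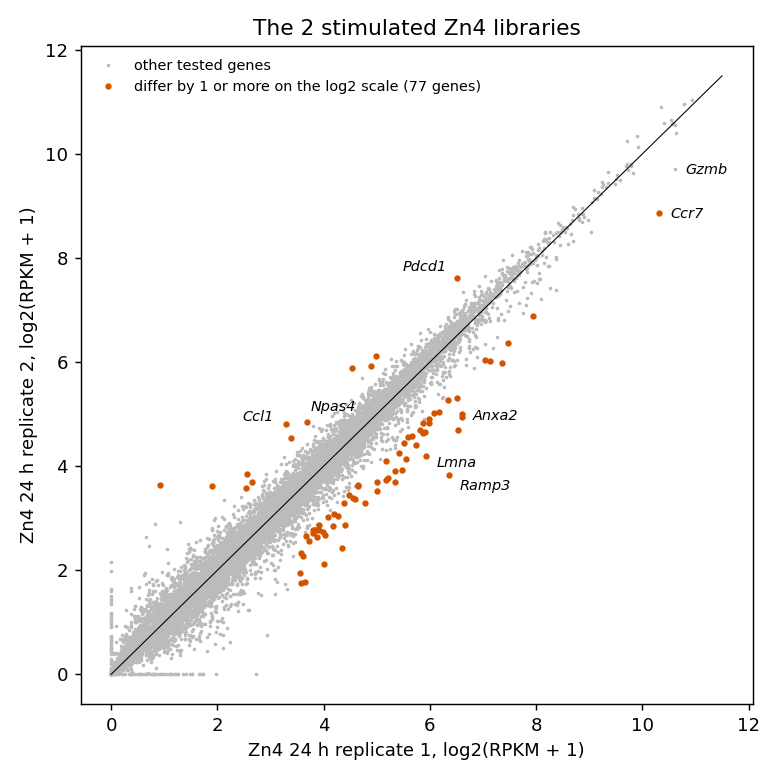
Level of each gene in the 2 stimulated Zn4 libraries, replicate 2 (vertical axis) against replicate 1 (horizontal axis), as log2(RPKM + 1). Coloured points are the 77 genes with at least 10 RPKM in either library and at least a 2-fold gap on this scale, 65 of them higher in replicate 1.

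The Zn4 response was then set against that of WT cells, which used none of the 4 Zn4 libraries, through the genotype by time term of the same fit. The difference in response (Zn4 change minus WT change) was called for 1048 of 12726 genes (8.24%), 494 toward a higher Zn4 change (3.88%) and 554 toward a lower one (4.35%). The median change over all tested genes was 0.31 in both genotypes. Of the 494 genes, 358 rose and 68 fell in Zn4 cells, and of the 554, 315 fell and 138 rose. The Zn4 change is part of the difference that chose these genes, so the choice itself favours such a split. The count depends on the libraries: it is 566 without stimulated Zn4 replicate 1, 1524 without stimulated Zn4 replicate 2, 677 without resting Zn4 replicate 2, and 340 or 325 without WT 24 h replicate 1 or 2. With the replicate number as a block within each time, a fit added after seeing the data, it is 2029. Of the 154 called genes that the lists or the naming rule cover, 64 keep their call with each of the 8 libraries left out in turn.

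Il3, Csf2 and Il2 were among the 8 genes with the largest excess in Zn4 cells. In WT cells Il3 had 1.11 and 0.841 RPKM at 24 h, against 0 and 0.130 RPKM at rest, so the Zn4 response exceeded the WT response by 7.10 ± 0.28 (SE; adjusted p = 8.7e-06). Csf2 had 1.29 and 1.23 RPKM at 24 h, against 0 and 0.102 RPKM at rest in WT cells, with a difference in response of 5.03 ± 0.40 (2.6e-04). Il2 had 6.05 and 6.54 RPKM at 24 h, against 0.0683 and 0 RPKM at rest in WT cells, with a difference of 3.79 ± 0.28 (1.8e-04). For each of these cytokines, both WT libraries at 24 h lay well under either stimulated Zn4 library. Ifng had 18.7 and 18.5 RPKM at 24 h, against 0.0971 and 0.102 RPKM at rest in WT cells (difference 3.30 ± 0.28, adjusted p = 3.7e-04). Gzmb had 109 and 114 RPKM at 24 h, against 1.54 and 0.951 RPKM at rest in WT cells (difference 3.28 ± 0.51, adjusted p = 0.00644). Of 14 tested cytokine genes, 7 had a higher Zn4 response (6 of them with any 1 library left out) and 1 a lower one (0). Among 19 STAT5 target genes, which include Gzmb, Lta and Il2ra, 8 had a higher response (7 with any 1 library left out) and none a lower one.

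The difference in response was not called for Xcl1, Ccl3 and Ccl4, the chemokine genes with the largest rises on this scale. Xcl1 had 1394 and 1235 RPKM in WT cells at 24 h, and its difference in response was 0.28 ± 0.26 (adjusted p = 0.574). Ccl3 differed by 1.77 ± 0.54 (adjusted p = 0.0791), Ccl4 by 0.70 (0.242), Il2ra by 0.59 (0.18) and S1pr1 by 0.36 ± 0.24 (0.41). It was called for 3 of the 8 chemokine genes, Ccl9 (2.33), Ccl1 (3.34) and Ccl22 (1.50), none of which kept the call with each library left out in turn. A p above the threshold does not show that the responses were equal.

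Several of the largest lower responses in Zn4 cells started from a resting level unlike that of WT cells. Cd163l1, a scavenger receptor gene of gamma-delta T cells, had 0.305 and 0.510 RPKM at 24 h, against 33.6 and 34.6 RPKM at rest in Zn4 cells, but only 0.0358 and 0.0204 RPKM at 24 h, against 0.543 and 0.402 RPKM at rest in WT cells. Nrp1, a coreceptor for semaphorins, had 17.3 and 26.5 RPKM at 24 h, against 15.6 and 19.7 RPKM at rest in Zn4 cells, whereas WT cells had 12.7 and 12.7 RPKM at 24 h, against 0.245 and 0.221 RPKM at rest. Cd74, the class II chaperone, had 25.7 and 25.1 RPKM at 24 h, against 40.9 and 22.0 RPKM at rest in Zn4 cells, and 15.6 and 18.5 RPKM at 24 h, against 0.803 and 1.88 RPKM at rest in WT cells. In Zn4 cells the groups overlap for Nrp1 and Cd74, and neither was called, although Cd74 is (-0.67, adjusted p = 0.0474) without resting replicate 2. Among 34 T cell receptor signalling genes, 12 had a lower Zn4 response and 1 a higher one; 2 of the 12, with the CD3 chain Cd3d (-0.95) among them, kept the call with each library left out in turn. Among 43 interferon-stimulated genes, 12 had a lower response and 2 a higher one, and 3 of the 12 kept the call. Gbp2, an interferon-induced guanylate-binding protein, rose by 0.96 in Zn4 cells with a difference in response of -2.65; without stimulated replicate 2 its rise is 0.72 (adjusted p = 0.0534).

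**Figure D5:**
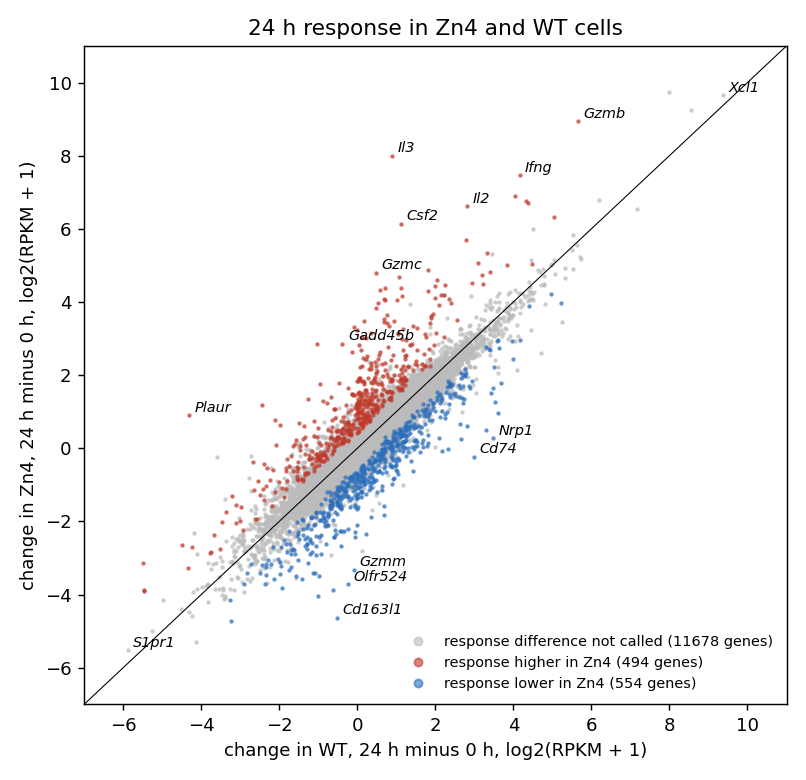
Log2 change from 0 h to 24 h in Zn4 cells (vertical axis) against that in WT cells (horizontal axis) for the 12726 tested genes, on the log2(RPKM + 1) scale. Coloured points are the 494 genes with a higher and the 554 with a lower Zn4 response; Il3 lies at 7.99 in Zn4 cells and 0.89 in WT cells.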

How the data were processed

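Per the submitters' processing notes, reads were aligned with TopHat2 2.0.12 and counted with HTSeq 0.6.1 on mm10 (GRCm38); the strand setting is not given in the sources used here, so overlapping and antisense genes are uncertain. The authors deposited RPKM values per gene in 1 table of 12892 lines and 12885 symbols; for the 7 symbols with 2 lines, the upper line was used. No gene's highest group mean is under 1.0005 RPKM. The low values are whole multiples of 1 read, and whole reads were recovered for all 12885 genes (tolerance 0.02 reads). Library totals run from 24263907 to 33389808 reads.

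Values were analysed as log2(RPKM + 1), with a pseudocount of 1. Genes that reached 1 RPKM in 2 or more libraries were tested with limma 3.58.1 in R 4.3.3 (1 fit of all 12 libraries with a mean per group, 6 residual degrees of freedom), with Benjamini-Hochberg adjustment over 12726 genes. The model was tested on simulated data. Whether replicates came from separate animals is not stated in the labels, and p-values then measure only the spread between these libraries, which may be technical.

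The comparison, the 41 gene lists and the naming rule were chosen with earlier results of these data known. Named are the 4 markers, the 12 largest rises and 12 largest falls, in each list the first 3 members and the 4 largest called rises and 4 largest called falls, the 8 largest differences in response in each direction, and the 10 highest genes of each group; some genes so selected are not reported here. Other genes in the text, such as Bax, Cd3d, Cd3g, Cd69, Cd8b1, Cxcl10, Egr3, Il2rb, Il2rg, Il6ra, Il6st, Itgb7, Lat, Qars, Ramp3, Tgfbr2, Tnf and the switched genes, were chosen after their values were seen. Alternatives were another pseudocount, other filters and scalings, smaller fits, a replicate block, limma-voom on the recovered reads, and leaving out each library.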

Additional observations from a re-analysis of the deposited data

Results flagged for a closer look

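The response to 24 h of stimulation differed between Zn4 and WT cells, by the genotype by time term of limma, for 1048 genes, and 17 of these are listed here because they are markers or among the largest differences. Toward a higher Zn4 response (Zn4 change minus WT change, log2 scale), Il3 differed by 7.10, Plaur by 5.22, Csf2 by 5.03, Gzmc by 4.31, Ndrg1 by 3.89, Il2 by 3.79, Adm by 3.68, Ifng by 3.30 and Gzmb by 3.28. Toward a lower Zn4 response, Cd163l1 differed by -4.13, Olfr524 by -3.49, Plac8 by -3.24, Gzmm by -3.23, Cd74 by -3.21, Nrp1 by -3.20, Pyroxd2 by -3.03 and Iigp1 by -2.81.

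Plaur had 96.8 and 31.1 RPKM at 24 h, against 26.7 and 31.4 RPKM at rest in Zn4 cells, and 1.15 and 1.87 RPKM at 24 h, against 45.7 and 51.4 RPKM at rest in WT cells; its change was 0.90 in Zn4 cells (not called; 1.70 and called without stimulated replicate 2) and -4.32 in WT cells. Ndrg1 and Adm were each higher in stimulated Zn4 replicate 1 than in replicate 2: Ndrg1 had 52.7 and 20.3 RPKM, and Adm 35.2 and 12.3 RPKM. Pyroxd2 had 0.0877 and 0.308 RPKM at 24 h, against 17.7 and 19.8 RPKM at rest in Zn4 cells, and WT cells had 1.29 and 0.957 RPKM at rest. Olfr524 had 12.8 and 16.4 RPKM at rest in Zn4 cells and 0.111 and 0.232 RPKM at rest in WT cells. With each of the 8 libraries left out in turn, 16 of the 17 kept their call; Plac8 lost it in several of these fits (highest adjusted p = 0.098). Causes were not tested.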

How the results depend on the processing

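Over the alternatives, the number of genes called in Zn4 cells ran from 7224 (of 9035 tested) with a filter of 5 RPKM to 9681, and was 9512 by limma-voom. Of 311 named genes called, 288 kept their call and direction under each of the 14 alternatives in which they were tested. Genes removed by the filter of 5 RPKM were not tested under that alternative. Signs reversed for Foxp1 (-0.01 by median-ratio scaling, -0.03 by quantile normalization), Gabarapl1 (-0.12 and -0.15), Ikzf1 (-0.34 and -0.29), Eef2 (-0.25 by median-ratio scaling) and Ccr7 (-0.69 without stimulated replicate 1 and 0.76 without replicate 2). The difference in response moved more: 550 genes (244 higher, 306 lower) when only 0 h and 24 h libraries entered the fit, 312 higher by limma-voom, and, chosen after seeing the data, 2029 (989 higher, 1040 lower) with the replicate block set separately for each time. Leaving out 1 library gave 325 to 1524 genes, 167 to 709 higher and 156 to 815 lower; the cause was not tested. The labels do not say what a replicate number marks. Deviations of same-numbered libraries correlated at r = -0.063 between stimulated and resting Zn4 cells, but at 0.610 between resting Zn4 and WT cells and 0.192 between those at 12 h, so whether the numbers pair the genotypes was not settled; with the replicate block 9603 genes were called in Zn4 cells and 1098 in the difference. With 2 libraries per group, changes of genes under about 1 RPKM are poorly measured.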
